A study of Mus musculus with 15 samples.

Results

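Polycomb proteins keep genes silent through histone marks, and 10 genes that encode subunits of their complexes were followed here in mouse LSK cells, a sorted bone marrow population rich in blood stem and progenitor cells. The 10 genes, Bmi1, Ezh1, Ezh2, Eed, Suz12, Cbx2, Cbx7, Cbx8, Rnf2 and Phc1, were chosen by name from the 22180 genes of the series table that have a probe set with exactly 1 gene symbol. The choice was made with earlier results of these data known. All 10 were measured, each by 1 probe set, and no filter on low values was applied. RNA came from 3 groups of 5 arrays: cells taken straight after sorting (non-cultured), cells kept for 18 h in MyeloCult M5300 medium without extracellular vesicles (without EV), and cells kept for 18 h in the same medium with vesicles released by AFT stromal cells (with EV). No genotype, strain, age or vesicle dose is given in the sources used here, the 5 samples in each group are named biological replicates by the submitters, and whether animals were pooled is not stated.

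Most Polycomb silencing is carried out by a pair of complexes. Polycomb repressive complex 2 (PRC2) methylates histone H3 at lysine 27: Ezh2 or its paralog Ezh1 is the catalytic subunit, Eed binds the methyl mark and stimulates the enzyme, and Suz12 holds the core together. Polycomb repressive complex 1 (PRC1) places ubiquitin on histone H2A and compacts chromatin: Rnf2 (RING1B) is the ubiquitin ligase, Bmi1 is its PCGF partner, the chromodomain proteins Cbx2, Cbx7 and Cbx8 read the methylated lysine, and Phc1 is a polyhomeotic protein that clusters the complexes. In mouse blood, Bmi1 is needed for self-renewal of stem cells, Ezh2 is most abundant in dividing cells, and Ezh1 is the more widespread paralog in cells that rarely divide.

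The promoters of the 4 PRC2 genes are shown because these genes carried the changes described below. RefSeq promoter windows (build GRCm38.p6) were found for 9 of the 10 genes, and the part from 250 bases before to 20 bases after the annotated start is printed 5′ to 3′ on the gene's strand. Capitals mark an E2F-type motif, the binding letters of the factors that drive S phase genes.
Ezh2, chr6:47595011-47595280, minus strand: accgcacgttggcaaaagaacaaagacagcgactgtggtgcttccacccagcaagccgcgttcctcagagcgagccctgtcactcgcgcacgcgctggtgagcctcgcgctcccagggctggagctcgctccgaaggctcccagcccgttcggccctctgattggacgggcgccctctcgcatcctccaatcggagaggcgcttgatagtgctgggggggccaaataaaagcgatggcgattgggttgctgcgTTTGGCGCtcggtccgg
Suz12, chr11:79992856-79993125, plus strand: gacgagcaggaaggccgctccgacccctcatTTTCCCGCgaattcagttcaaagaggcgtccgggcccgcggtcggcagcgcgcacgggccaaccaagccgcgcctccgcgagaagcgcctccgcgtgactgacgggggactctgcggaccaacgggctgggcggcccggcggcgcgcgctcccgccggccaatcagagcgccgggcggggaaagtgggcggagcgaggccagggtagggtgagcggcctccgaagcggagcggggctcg
Eed, chr7:89980957-89981226, minus strand: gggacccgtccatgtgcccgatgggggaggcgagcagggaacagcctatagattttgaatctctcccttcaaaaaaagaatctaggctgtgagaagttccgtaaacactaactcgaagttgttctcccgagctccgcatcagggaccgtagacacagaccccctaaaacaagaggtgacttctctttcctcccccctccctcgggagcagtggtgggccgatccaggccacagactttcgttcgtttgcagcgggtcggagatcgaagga
Ezh1, chr11:101226444-101226713, minus strand: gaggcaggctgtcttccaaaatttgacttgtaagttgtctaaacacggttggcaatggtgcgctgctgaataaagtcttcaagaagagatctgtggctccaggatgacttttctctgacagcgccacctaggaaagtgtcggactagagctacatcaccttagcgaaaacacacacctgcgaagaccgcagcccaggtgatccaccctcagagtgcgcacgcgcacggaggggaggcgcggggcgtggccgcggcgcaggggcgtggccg

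The E2F-type letters searched were TTTCCCGC, TTTGGCGC, TTTCGCGC and TTTGCCGC, on both strands and over the whole window of 300 bases. Among the 9 windows, those of Ezh2 and Suz12 held 1 match each, against 2.26% of all 32851 promoter windows. Each of these E2F-type strings contains the letters CG. The windows of Ezh2 and Suz12 held CG 31 and 41 times, against a median of 7 over all windows. The share over all windows is therefore no matched background, and windows of like CG content were not compared. In Ezh2 the match lay at bases 4 to 11 after the start, and in Suz12 it lay 219 to 212 bases before it. For Ezh2, another annotated start of the gene lies upstream, at base 11 of the printed window. The CCAAT box was found in 5 of the 9 windows (Ezh2, Eed, Suz12, Cbx7 and Cbx8) and in 37.4% of all windows. The letters TTTGAA or TTCGAA of the cell cycle homology element were in 3 of the 9 (Eed, Suz12 and Cbx7) and in 19.2% of all, and the E-box CACGTG was in 2 (Bmi1 and Cbx8) and in 7.15% of all. These 4 motif sets do not overlap one another in the printed windows. The Ezh1 window, like those of Rnf2 and Phc1, held none of the 4. A match is a description of the letters and not evidence of binding.

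Before the comparisons, the arrays were checked as a set. The median signal of an array lay between 4.62 and 4.74 on the log2 scale, and no pair of the 105 pairs of arrays held identical values. Kit, 1 of the markers of LSK cells, lay between 9.25 and 10.09 in all arrays, and Ly6a was not analysed here. Kit was called higher without EV than in non-cultured cells (log2 0.39, limma adjusted p = 0.0429), but in only 5 of 15 fits that left out 1 array. With EV it was not called (log2 0.26, limma adjusted p = 0.196). The mean signal of 8 measured lineage markers (T, B, myeloid and natural killer cells) was 3.93 to 4.42 per array, below the median of every array. Single markers differed from that mean: the myeloid marker Itgam had group means of 6.18 (non-cultured), 6.74 (without EV) and 6.56 (with EV), above the array medians. The macrophage marker Adgre1 rose in culture without EV (log2 0.56, limma adjusted p = 0.00762) and was higher with EV too (log2 0.58, adjusted p = 0.00593), both against non-cultured cells. Replicate 1 with EV stood apart, with a mean correlation of 0.964 to its group against 0.9735 to 0.9825 for the other 14 arrays. Non-cultured replicates 4 and 5 had been set apart on myeloid genes in an earlier look at these data. Here their mean signals of 8 monocyte and granulocyte markers were 7.06 and 6.85, against 7.17, 7.17 and 7.27 in replicates 1 to 3. Results are also given without replicate 1 with EV and without non-cultured replicates 4 and 5 where a call changed.

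Culture without vesicles lowered the PRC2 core and raised the paralog Ezh1. Against non-cultured cells, Ezh2 fell 1.47-fold, Suz12 fell 1.37-fold and Eed fell 1.32-fold, while Ezh1 rose 1.80-fold. These 4 were the only ones of the 10 genes called, 3 lower and 1 higher (limma, with p adjusted by Benjamini-Hochberg across the 22180 genes and called under 0.05). Before adjustment, 6 of the 10 had a p under 0.05, as did 24.3% of all genes. Of all genes 13.6% were called in this comparison, 6.88% lower and 6.75% higher, against 40% of the 10 genes. The 10 were chosen with earlier results of these data known, so these shares are no test of them as a set. The baseline also includes dim genes, while the 4 called genes had non-cultured means at percentiles 79.1 (Ezh1) to 95.2 (Eed) of all genes. The median difference of the 10 genes was -0.31 on the log2 scale and that of all genes 0.01. In bulk RNA, fewer cells that express a gene and less RNA per cell cannot be told apart.

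Ezh2, the catalytic subunit linked to dividing cells, had signals of 8.19, 7.76, 7.68, 8.06 and 8.01 (log2) in non-cultured replicates 1 to 5. Without EV the 5 signals were 7.30, 7.67, 7.13, 7.27 and 7.57. Every array without EV was below every non-cultured array, although the lowest non-cultured array, replicate 3, exceeded the highest cultured one, replicate 2, only slightly. Such separation in the downward direction held for 6.1% of all genes. The difference was -0.55 on the log2 scale (SE 0.12, 95% interval -0.81 to -0.30, n = 5 per group, limma adjusted p = 0.00461).

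Ezh1, the alternative catalytic subunit, moved the other way. Its non-cultured signals were 6.51, 6.91, 6.25, 6.91 and 6.63 (log2), and those without EV were 7.12, 7.33, 7.44, 7.95 and 7.61. The groups did not overlap, which held for 5.89% of all genes in the upward direction. The difference was 0.85 on the log2 scale (SE 0.17, 95% interval 0.48 to 1.21, n = 5 per group, limma adjusted p = 0.00312), the smallest p among the 10 genes.

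Within each array, the Ezh2 signal minus the Ezh1 signal was 1.30 ± 0.31 (log2, SD, n = 5) in non-cultured cells and -0.10 ± 0.40 without EV. With EV it was -0.30 ± 0.36. The non-cultured arrays ranged from 0.85 to 1.68 and the 10 cultured arrays from -0.74 to 0.33, with no overlap. The value itself depends on the brightness of the 2 probe sets, so it does not tell which paralog is more abundant, and only its change between groups can be read. It is given without a test, because the pair was looked at with the single results known.

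**Figure D1:**
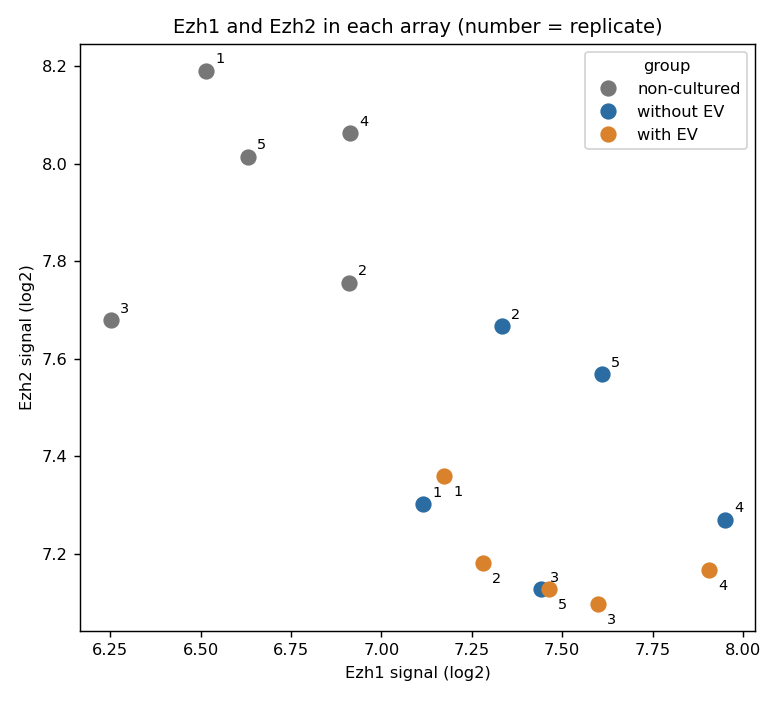
Signal of Ezh1 (horizontal, log2) against Ezh2 (vertical, log2), 1 point per array, coloured by group and numbered by replicate. The 5 non-cultured arrays lie at upper left, with Ezh1 at or below 6.91 and Ezh2 at or above 7.68, and the 10 cultured arrays lie at lower right with both vesicle groups mixed.

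Suz12, the scaffold of PRC2, had non-cultured signals of 8.44, 8.08, 7.94, 7.84 and 7.95 (log2). Without EV they were 7.51, 7.45, 7.86, 7.50 and 7.63. Of the 25 pairs of arrays 24 had the lower value without EV, and the groups met only at replicate 3 without EV and non-cultured replicate 4. The difference was -0.46 on the log2 scale (SE 0.12, n = 5 per group, limma adjusted p = 0.0154).

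Eed, the subunit that reads the methyl mark, had non-cultured signals of 8.59, 8.57, 8.42, 8.35 and 8.20 (log2) and signals of 8.07, 7.95, 7.97, 8.26 and 7.90 without EV. Again 24 of 25 pairs were lower, with replicate 4 without EV just above non-cultured replicate 5. The difference was -0.40 on the log2 scale (SE 0.12, n = 5 per group, limma adjusted p = 0.0353), and this call depended on single arrays. Arrays with EV enter this comparison only through the shared spread, and leaving out any of them kept the call. Among all 15 fits that each left out 1 array, Eed was called in 8. It was not called without non-cultured replicate 1 (adjusted p = 0.092), replicate 2 (adjusted p = 0.0877) or replicate 3 (adjusted p = 0.0627), nor without replicate 1 (adjusted p = 0.0538), 2 (adjusted p = 0.0772), 3 (adjusted p = 0.0731) or 5 (adjusted p = 0.0856) of the group without EV, all by limma. Its log2 difference in these 15 fits stayed between -0.45 and -0.36.

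With non-cultured replicates 4 and 5 alone as the reference, an alternative with fewer samples that was chosen after seeing the data, only Ezh2 was called (log2 -0.65, limma adjusted p = 0.016), while Suz12 differed by -0.30 (adjusted p = 0.272), Eed by -0.24 (adjusted p = 0.525) and Ezh1 by 0.72 (adjusted p = 0.0834). That fit called 1438 genes in place of 3022. Without replicates 4 and 5 the same 4 genes were called as with all arrays.

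**Figure D2:**
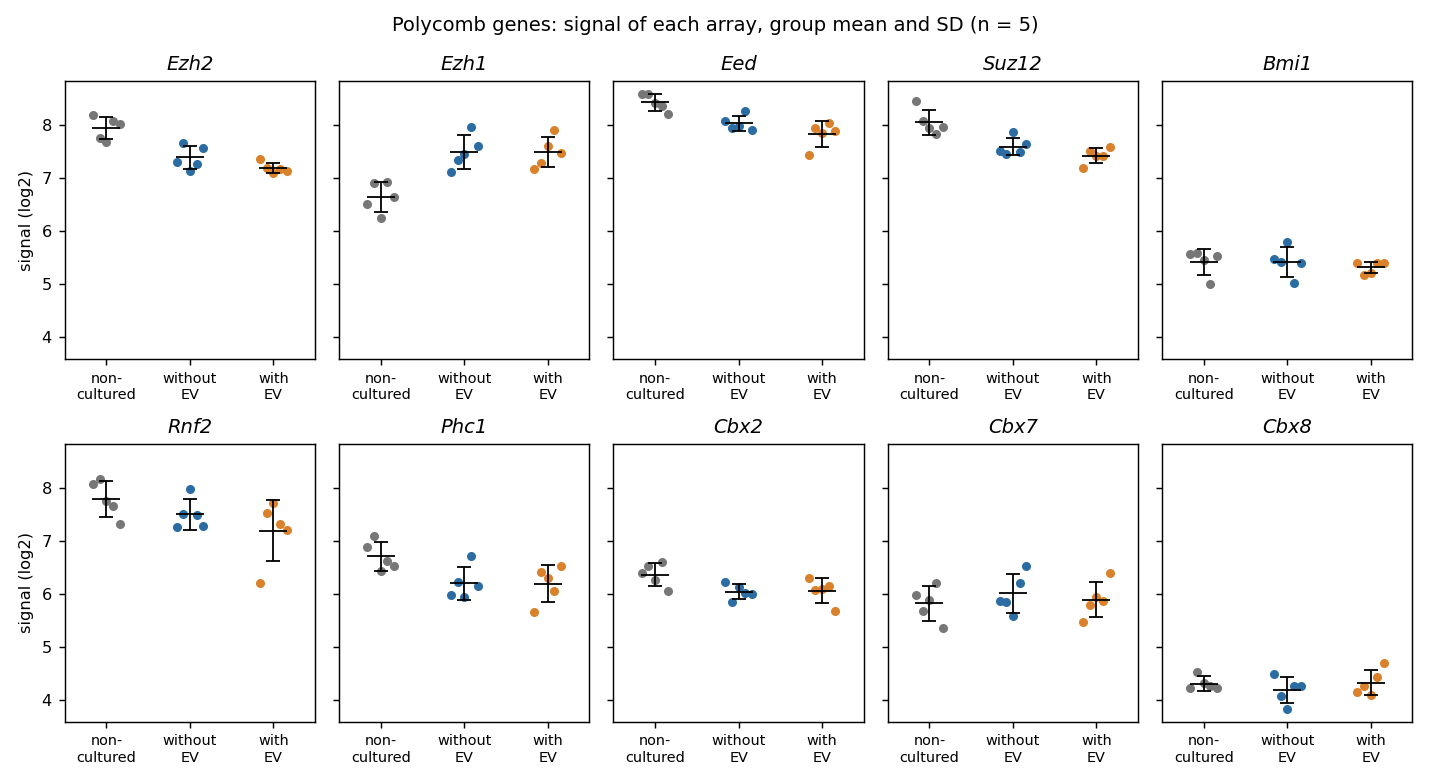
Signal (log2, vertical) of each of the 10 genes in each array, with non-cultured cells in grey, without EV in blue and with EV in orange. Horizontal ticks with bars are the group mean and SD of 5 arrays. Ezh2, Eed and Suz12 step down and Ezh1 steps up from non-cultured to both cultured groups, and the PRC1 genes overlap between groups.

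No PRC1 gene passed the test in culture without EV. The nearest was Phc1, the polyhomeotic subunit, whose mean signal was 6.71 ± 0.27 (log2, SD, n = 5) in non-cultured cells and 6.20 ± 0.31 without EV, a difference of -0.51 (SE 0.18, limma adjusted p = 0.079). Its groups overlapped through replicate 4 without EV, at 6.71, while the other 4 cultured arrays lay between 5.93 and 6.22. Phc1 was called without replicate 4 without EV (log2 -0.64, adjusted p = 0.0246) and without replicate 1 with EV, which enters only through the shared spread (log2 -0.51, adjusted p = 0.0432).

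Rnf2, the ubiquitin ligase, had a mean of 7.79 ± 0.34 in non-cultured cells and 7.50 ± 0.29 without EV (log2, SD, n = 5), with ranges of 7.32 to 8.16 and 7.25 to 7.97. The difference of -0.29 (SE 0.24, limma adjusted p = 0.555) was within the spread of the arrays. Bmi1, the PCGF partner of Rnf2 and the best known Polycomb gene of blood stem cells, had almost the same mean in both groups, 5.42 ± 0.24 and 5.42 ± 0.28 (log2, SD, n = 5). Its 95% interval of the difference, -0.29 to 0.29 on the log2 scale, runs from 0.82 to 1.22 times the non-cultured level when written as a fold.

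No chromodomain gene was called without EV. Cbx2 was 6.36 ± 0.22 in non-cultured cells and 6.04 ± 0.14 without EV (log2, SD, n = 5), a difference of -0.32 (SE 0.13, limma adjusted p = 0.116), and it was called only without non-cultured replicate 5 (log2 -0.40, adjusted p = 0.0462). Cbx7 was 5.82 ± 0.32 and 6.004 ± 0.36, a difference of 0.19 (SE 0.20, limma adjusted p = 0.668). Cbx8 was the dimmest of the 10 genes, 4.31 ± 0.13 and 4.18 ± 0.25, means below the median signal of every array. Cbx2 and Cbx8 are neighbours on mouse chromosome 11.

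With vesicles present, the same 4 genes differed from non-cultured cells. Ezh2 was 1.69-fold lower, Suz12 1.55-fold lower and Eed 1.51-fold lower, and Ezh1 was 1.79-fold higher. Of all genes 14.1% were called here, 7.85% lower and 6.28% higher. Before adjustment, 7 of the 10 genes had a limma p under 0.05, as did 26% of all genes. This comparison shares the 5 non-cultured arrays with the one above and is no independent repeat of it.

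The Ezh2 signals with EV were 7.36, 7.18, 7.10, 7.17 and 7.13 (log2), a difference from non-cultured cells of -0.75 (SE 0.12, n = 5 per group, limma adjusted p = 0.000392). Suz12 signals were 7.20, 7.50, 7.40, 7.41 and 7.58, a difference of -0.63 (SE 0.12, limma adjusted p = 0.00158). Eed signals were 7.42, 7.95, 7.84, 8.04 and 7.89, a difference of -0.60 (SE 0.12, limma adjusted p = 0.00245). For these 3 genes no array with EV reached the lowest non-cultured array, as was the case for 6.18% of all genes. Ezh1 signals were 7.17, 7.28, 7.60, 7.91 and 7.46, a difference of 0.84 (SE 0.17, limma adjusted p = 0.00325), and all were above the non-cultured arrays, as for 5.06% of all genes.

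All 4 were called in each of the 15 fits that left out 1 array. With non-cultured replicates 4 and 5 alone as reference only Ezh2 was called (log2 -0.85, limma adjusted p = 0.00301). Suz12 then differed by -0.48 (adjusted p = 0.0604), Eed by -0.45 (adjusted p = 0.136) and Ezh1 by 0.71 (adjusted p = 0.0873).

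The PRC1 genes again did not pass. Phc1 was 6.19 ± 0.34 with EV (log2, SD, n = 5), -0.52 from non-cultured cells (SE 0.18, limma adjusted p = 0.0704), and it was called without replicate 5 with EV (log2 -0.60, adjusted p = 0.0472) and again when replicate 4 without EV was left out (log2 -0.52, adjusted p = 0.0456). Rnf2 was 7.19 ± 0.58, with replicate 1 at 6.21 and the other 4 between 7.20 and 7.70. Its difference of -0.60 (SE 0.24, limma adjusted p = 0.121) was -0.35 (adjusted p = 0.252) without that array. Cbx2 was 6.05 ± 0.23 and differed by -0.31 (SE 0.13, limma adjusted p = 0.129). Bmi1 (-0.11), Cbx7 (0.07) and Cbx8 (0.02) differed by less than 1 SE of their log2 difference.

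**Figure D3:**
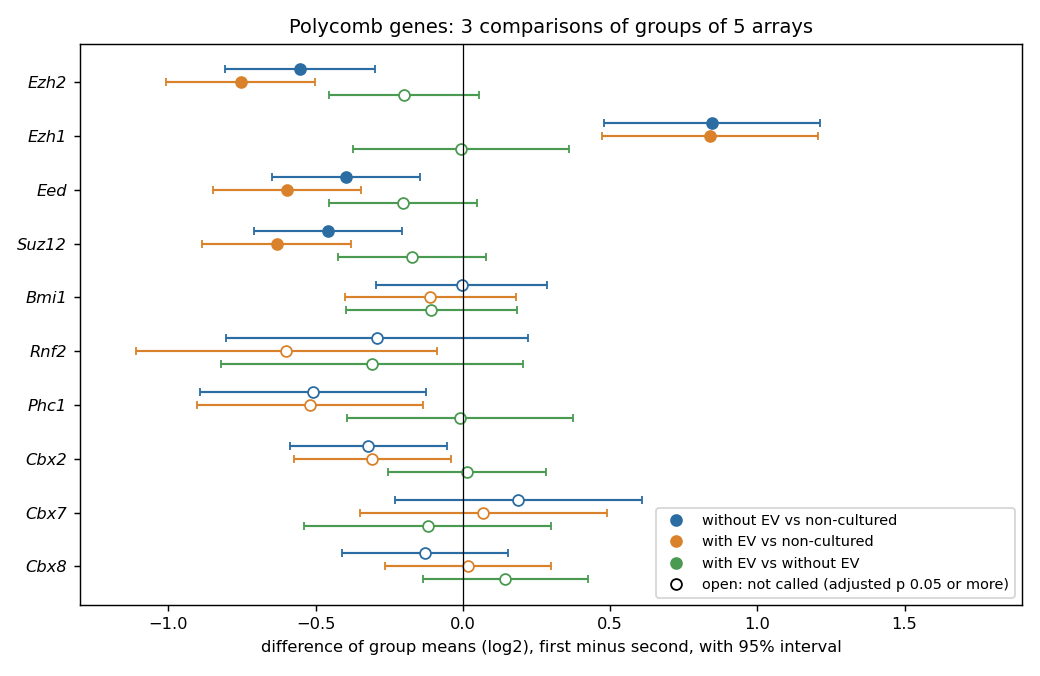
Difference of group means (log2, horizontal) of the 10 genes in 3 comparisons, with 95% intervals of the limma fit, unadjusted for the number of genes. Filled points were called at an adjusted p under 0.05. Filled points occur only for Ezh2, Eed, Suz12 and Ezh1 and only against non-cultured cells, and every interval of the comparison of vesicles with no vesicles includes 0.

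The vesicles themselves changed none of the 10 genes detectably. With EV against without EV, 0 of the 10 were called by limma, against 0.198% of all genes (0.18% higher and 0.018% lower). None of the 10 had an unadjusted p under 0.05, which 6.82% of all genes had. The groups overlapped for all 10, whereas 0.762% of all genes lay wholly above and 0.437% wholly below with EV. The order of the group means was non-cultured, without EV, with EV from high to low for Ezh2, Suz12, Eed, Rnf2, Phc1 and Bmi1. The last step did not pass the test for any of these genes, and the share of all genes with this order was not counted. For Bmi1 the first step was only -0.003 on the log2 scale, and for Phc1 the last step was only -0.01. Ezh2 differed by -0.20 (log2, SE 0.12, 95% interval -0.46 to 0.05, limma adjusted p = 0.776), Eed by -0.20 (SE 0.12, 95% interval -0.45 to 0.05) and Suz12 by -0.17 (SE 0.12, 95% interval -0.43 to 0.08). These intervals allow a fall to 0.73 of the level without EV for Ezh2 and Eed.

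The array that stood apart weighed on some of these values. Without replicate 1 with EV the difference between vesicle groups was -0.10 for Eed, -0.12 for Suz12 and -0.06 for Rnf2, which had been -0.31 with all arrays (SE 0.24, limma adjusted p = 0.834). For Ezh2 it was -0.24 without that array. Ezh1 differed by -0.01 between the vesicle groups (95% interval -0.37 to 0.36), Phc1 by -0.01 (95% interval -0.39 to 0.37) and Cbx2 by 0.01 (95% interval -0.25 to 0.28). These intervals still allow a rise of 1.28-fold for Ezh1 and 1.30-fold for Phc1. Bmi1 differed by -0.11, Cbx7 by -0.12 and Cbx8 by 0.14, with adjusted p between 0.8606 and 0.936.

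Other genes of the 2 complexes were read from lists compiled with earlier results of these data known. Among 8 partners of PRC2, 4 fell in culture without EV and none rose, 50% against 6.88% of all genes lower, and the median log2 difference was -0.46 against 0.01 for all genes. The histone binder Rbbp7 fell 1.78-fold (limma adjusted p = 7.84e-05), a log2 difference of -0.83 with an SE of 0.11 over 5 arrays a group, and its paralog Rbbp4 fell 1.41-fold (adjusted p = 0.0133). Both also serve other chromatin complexes. Phf19, which binds PRC2 to methylated H3, fell by 0.53 on the log2 scale (adjusted p = 0.00711), and Epop, which links PRC2 to elongin, fell by 0.48 (adjusted p = 0.0463) but passed in only 5 of the 15 fits with 1 array left out. Jarid2, a cofactor that recruits PRC2, differed the other way (log2 0.29, adjusted p = 0.0519), and Mtf2 differed by -0.45 (adjusted p = 0.188). With EV, 3 of the 8 (37.5%, against 7.85% of all genes) were lower than in non-cultured cells, Rbbp7 (1.94-fold), Rbbp4 (1.54-fold) and Epop (1.51-fold), while Phf19 was not called (log2 -0.32, adjusted p = 0.0952).

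Among 18 measured further subunits of PRC1 and its variant complexes, 3 fell without EV and none rose. That is 16.7% lower, against 6.88% of all genes lower and 13.6% called in either direction, and the median difference was -0.12. Usp7, a deubiquitinase that joins variant PRC1, fell 1.42-fold (adjusted p = 0.00664, limma), Auts2 fell 1.60-fold (adjusted p = 0.0392) and the PCGF paralog Pcgf6 fell 1.34-fold (adjusted p = 0.0393). In the 15 fits that left out 1 array, Auts2 was called in 8 and Pcgf6 in 9. Every loss came on leaving out an array of the 2 groups compared. With EV 4 (22.2%, against 7.85% of all genes lower and 14.1% called in either direction) were lower than in non-cultured cells. They were the same 3 and Scmh1, a partner of the polyhomeotic proteins (1.75-fold, adjusted p = 0.00267). In this comparison Pcgf6 passed in only 7 of the 15 fits that left out 1 array. Scmh1 without EV differed by -0.42 (adjusted p = 0.111), and the difference between the vesicle groups was not called (log2 -0.39, adjusted p = 0.681).

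Among 17 measured enzymes and complexes that oppose Polycomb, 4 fell and 1 rose without EV, 29.4% against 13.6% of all genes called, with a median difference of 0.13. Kdm6b, the H3 lysine 27 demethylase that inflammatory signals induce in macrophages, had the largest fall among the members of this list. Its signals were 8.93, 8.84, 8.76, 9.14 and 9.03 (log2) in non-cultured cells and 7.40, 7.51, 7.24, 7.47 and 7.25 without EV, a fall of 2.96-fold (SE 0.10 on the log2 scale, limma adjusted p = 3.01e-08). With EV the signals were 7.05, 7.32, 7.21, 6.91 and 7.28, a fall of 3.45-fold from non-cultured cells. Dpy30 of the MLL complexes (log2 -0.59), the remodeller Smarca4 (log2 -0.51) and Asxl1 (log2 -0.46), the cofactor of the H2A deubiquitinase Bap1, also fell without EV, and the H3 lysine 4 methylase Kmt2c rose (log2 0.46, passing in 11 of the 15 fits with 1 array left out). Bap1 itself differed by -0.66 (adjusted p = 0.0616).

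Genes known as Polycomb targets did not pass the test, with 1 exception. Of 22 targets 1 rose and none fell without EV, 4.55% against 13.6% of all genes called, and the median difference was 0.03. The exception was Hmga2, a chromatin protein of fetal and young stem cells, which rose 2.55-fold from 7.12, 7.14, 6.67, 6.71 and 6.53 (log2) to 8.43, 8.19, 8.21, 8.34 and 7.77 (SE 0.17, limma adjusted p = 3.29e-05). With EV it was 2.16-fold above non-cultured cells, and Igf2bp3 was called too (log2 0.28, adjusted p = 0.0479), but passed in only 4 of these 15 fits. Cdkn2a, the classic target of Bmi1, which was added after its value was seen, differed by 0.14 without EV (adjusted p = 0.594) and by 0.32 with EV (adjusted p = 0.126), both against non-cultured cells. The mean signal of the other 21 targets lay between 4.29 and 4.31 in non-cultured arrays, between 4.27 and 4.44 without EV and between 4.30 and 4.53 with EV. Of the 22 targets 13 lay in the dimmer 50% of genes in non-cultured cells, and no signal over background is given for them.

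**Figure D4:**
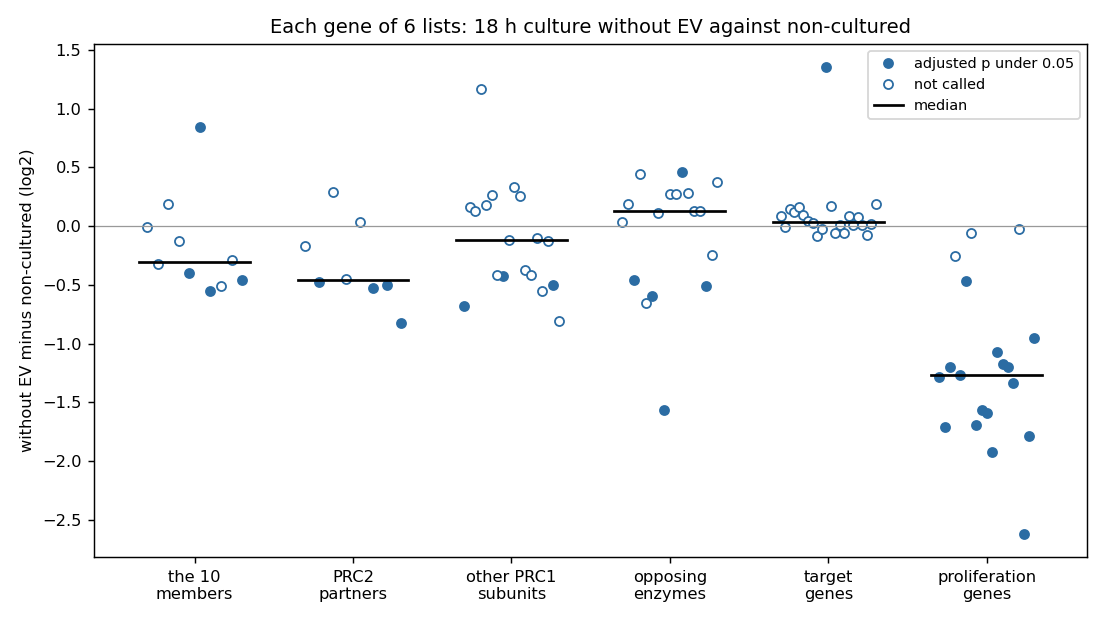
Difference of without EV from non-cultured (log2, vertical) for every measured gene of 6 lists, with 1 point per gene, filled where called at an adjusted p under 0.05, and a bar at the median. The medians are -0.31 for the 10 Polycomb genes, -0.46 for PRC2 partners, -0.12 for other PRC1 subunits, 0.13 for opposing enzymes, 0.03 for target genes and -1.27 for proliferation genes.

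Genes of proliferation and of myeloid cells moved in the same comparisons. Of 19 measured replication and mitosis genes 16 fell without EV and none rose, 84.2% against 6.88% of all genes lower, with a median of -1.27, among them Mcm2 (3.24-fold), Top2a (3.44-fold) and Pcna (2.52-fold). The mean signal of this list lay between 7.55 and 7.74 in non-cultured arrays, between 6.25 and 6.56 without EV and between 6.24 and 6.51 with EV. Of 8 monocyte and granulocyte markers 5 rose and 1 fell without EV, 75% called against 13.6% of all genes, and their mean signal moved from 6.85 to 7.27 in non-cultured arrays to 8.41 to 8.65 without EV and 8.13 to 8.64 with EV. The list was mixed. Csf1r, Lyz2, Ccr2, Ly6c2 and Mmp8 rose, and the rise of Mmp8 (log2 4.3) was the largest. Mpo fell (log2 -0.66), and Elane (log2 0.11) and Cd14 (log2 -0.07) were not called. The part of these proliferation and myeloid genes in the changes of the PRC2 genes was not tested. Of 10 stromal markers 1 was higher with EV than without (Cald1, log2 0.68), 10% against 0.18% of all genes higher. Before adjustment 6 of the 10 had a limma p under 0.05, against 6.82% of all genes. With EV against non-cultured cells 4 were higher and 0 lower, 40% against 6.28% of all genes higher. The mean signal of the list was 4.57 to 4.69 without EV and 4.75 to 5.06 with EV.

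The genes with the pattern closest to the 3 Polycomb genes of smallest p were sought among all genes. Likeness was the root mean square difference of the gene-centred log2 signals over the 15 arrays. For Ezh2, whose own signals varied by 0.36 about their mean on this measure, the nearest were Erap1 (0.15), Pask (0.151), Wdr43 (0.151), Dnmt1, the maintenance DNA methyltransferase (0.158), and Ptprcap (0.161). For Ezh1, which varied by 0.476, they were Abcc1 (0.168), Pnisr (0.207), Rreb1 (0.208), Adcy7 (0.209) and Zfp950 (0.211). For Suz12, which varied by 0.314, they were Eif1ax (0.121), Dnajb6 (0.133), Gm10335 (0.144), Heatr1 (0.147) and Atp5o (0.147).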

How the data were processed

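Total RNA of 15 samples of mouse LSK cells was labelled from 500 pg and hybridised to Affymetrix Mouse Gene 2.0 arrays, per the labels' protocols. The values are the 15 columns of the deposited series table, with 41345 probe sets, and were used as deposited. The range of the deposited values, 1.4 to 13, is that of log2 signals, though no source used here states the base. The submitters' processing notes name MAS5 alone, without saying what it was used for, and background correction and normalization by the authors are not stated. No batch is named.

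Gene symbols came from the platform annotation: 23521 probe sets have 1 symbol, 1814 several and 16010 are unnamed here. The brightest probe set per gene over all arrays left 22180 genes. In R 4.3.3, limma 3.58.1 (lmFit, eBayes) estimated the 3 group means from all arrays together, with 12 residual and 3.66 prior degrees of freedom. Tests were two-sided, and a gene was called where its p, adjusted by Benjamini-Hochberg across the 22180 genes, was under 0.05. The number of arrays limits the precision. SE is the moderated standard error of a log2 difference, and 95% intervals cover 1 gene at a time.

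The 10 genes, the lists, the motifs and the tests were chosen with earlier results of these data known. All 10 genes are named, with the 5 nearest patterns to 3 of them. Apart from Cdkn2a and marker genes, genes of the lists were named by 2 ranks. These were the 6 smallest adjusted p without EV against non-cultured and the 3 smallest p between the vesicle groups. Not every gene within these ranks, and not every marker, is named. Replicate numbers did not clearly pair the arrays: the deviations from group means correlated above 0.1 in 1 of 15 same-numbered pairs. Between the 2 cultured groups these correlations were all positive, from 0.0231 to 0.187, so a weak pairing there is not excluded. On simulated data for without EV against non-cultured over 22180 genes, the fit recovered 34% of genes changed by log2 0.5, 90% at log2 1 and 100% at 2 and 3. Only 50 genes were changed at each size and 172 were called, against 3022 called in the data. The adjustment of p therefore differed, and these percentages do not give the share recovered in the real comparison. Alternatives were quantile normalization, median centring, a filter on dim genes, the mean of probe sets, only the groups compared, a replicate block, a trended robust fit, array weights, and leaving out arrays. An array outside the 2 groups compared enters a comparison only through the shared spread, so leaving it out is a weaker check.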

Additional observations from a re-analysis of the deposited data

Results flagged for a closer look

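Bmi1 in non-cultured replicate 4 had a signal of 4.996 (log2), far from the other 4 arrays of its group, of which the nearest was 5.456. The gap was 0.788 of the group's range, above the limit of 0.71 for 5 arrays in Dixon's test. It was the only one of 30 groups of 5 arrays (10 genes in 3 groups) past that limit, and chance alone passes about 1 in 20. Leaving out that array did not bring a call for Bmi1.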

How the results depend on the processing

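The count of called genes among the 10 stayed at 4 or within 1.5 times of it against non-cultured cells, and at 0 between the vesicle groups, under all other settings run. The exception came with only non-cultured replicates 4 and 5 as reference, chosen after seeing the data: it was 1 in both comparisons with non-cultured cells, and the counts over all genes were 1438 (without EV) and 1369 (with EV) in place of 3022 and 3135. That fit has fewer samples. Leaving out 1 array at a time gave 3 to 5 called of the 10 without EV and 4 to 5 with EV against non-cultured cells, and 0 to 0 between the vesicle groups. Over all genes the same fits called 2526 to 3332, 2604 to 3177 and 29 to 53 genes, where 29 came without replicate 2 of the group without EV, against 44 with all arrays. With the replicate block, 3 of the 10 genes were called without EV against non-cultured, since Eed was lost (adjusted p = 0.0569), 4 with EV against non-cultured and 0 between the vesicle groups, and 2987, 3063 and 39 of all genes. The block changed no other call among the 10, and 5 of the 15 arrays correlated best with an array of their own number. Median centring also lost Eed without EV (adjusted p = 0.0598). Phc1 gained a call with array weights (adjusted p = 0.0482 without EV) and with the dimmest 40% of genes left out (adjusted p = 0.0491 with EV). No called difference changed sign. Cbx8, being dim, had no value without the dimmest 40% of genes. No alternative moved the median difference of all genes by over 0.1 on the log2 scale.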

Other observations

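Exactly repeated values were common in the deposited table: 12318 of 41345 probe sets (29.8%) held at least 1 value that occurred in more than 1 array. Among the 10 Polycomb genes this touched the dimmest, with 4 of the 15 values of Bmi1 and 3 of those of Cbx8 shared with another array, and none of the 15 values of Ezh1, Ezh2, Eed, Suz12, Cbx2, Cbx7, Rnf2 or Phc1. CpG dinucleotides numbered 41 in the 300-base promoter window of Suz12, 31 in Ezh2, 23 in Ezh1 and 17 in Eed, against a median of 7 over all windows. Among the PRC1 genes they numbered 33 in Cbx7, 30 in Rnf2, 24 in Cbx8, 23 in Bmi1 and 9 in Phc1, so high counts were not particular to PRC2.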
